A study of Mus musculus with 9 samples.

Results

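The 33 genes described here carry a cell through mitosis: they start it, attach and move the chromosomes, build the spindle and divide the cytoplasm. They are a list of gene names, drawn up with earlier results of these data known, among them the rise of Sapcd2. They make up 33 of the 53796 genes in the table, and each matched 1 row. CT26, a colorectal carcinoma line of the mouse, gave the RNA of all 9 samples. Every sample carries a Pd-l1 knockout. The ligand that the T cell protein PD-1 binds is the product of Pd-l1, listed as Cd274. The knockout cells were infected with retrovirus, selected with puromycin, and fell into 3 groups of 3 samples. The labels describe 1 group as Pd-l1 KO with no insert named (KO), 1 as rescued with wild type Pd-l1 (WT) and 1 as rescued with K262Q Pd-l1 (K262Q), a form with a lysine replaced by glutamine. Cells grew in RPMI medium with FBS, and the labels call the selected cells stable subclones without saying whether a group is 1 clone. The labels do not tell whether samples of a group were grown apart, so a p-value here weighs a difference only against the spread between samples, and that spread may be technical.

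Mitosis begins when the kinase Cdk1, bound to its cyclins, is switched on. Chromosomes then attach to spindle microtubules through kinetochores, and a checkpoint holds the cell until all are attached. The anaphase promoting complex, a ubiquitin ligase, then marks cyclins and other proteins for destruction, and the cell divides. Most of these genes are transcribed mainly late in the cell cycle, so in a bulk sample more cells in mitosis and more RNA per cell cannot be told apart. Many of their promoters hold a cell cycle genes homology region (CHR), through which the DREAM and MuvB complexes act, and boxes bound by NF-Y.

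RefSeq promoter windows (GRCm38.p6, 250 bases before to 50 after the start site) were found for 28 of the 33 genes, and none for Ccna2, Foxm1, Aurkb, Tpx2 and Kif20a. They were searched on both strands for the common CHR form TTTGAA, for the rarer CHR form TTCGAA and for the NF-Y box CCAAT, so that a capital stretch may read as the reverse complement of a motif. Matches of different motifs can share end bases and were counted separately. TTTGAA was in 22 of 28 windows (78.6%), against 17.9% of all 32851 RefSeq windows of this length and 11.9% of the 10665 windows of genes tested here. CCAAT was also in 22 (78.6%), against 37.4% of all windows and 38.6% of those of tested genes. At least 2 CCAAT were in 16 windows (57.1%), against 11.7% and 14.8%. TTCGAA was in 3 (10.7%), against 1.56% and 2.18%. A CHR form together with CCAAT was in 20 windows (71.4%), against 7.52% and 5.87%. In 21 of the 23 genes with a CHR form, a match began between base -50 and base 44, counted from the start site. The share of all windows with a match there was not counted. A match describes letters only, not a bound site.

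The following stretches, from 170 bases before to 29 after the RefSeq start, show how far these promoters differ among genes that rose in K262Q against WT (the first 5) and genes that did not pass the test (the last 2). They are written 5′ to 3′ on the strand of the gene, with matches of the 3 motifs in capitals. The RefSeq start lies 286 bases from the GENCODE start in Sapcd2, as it does by 328 in Kif4, 2394 in Cdca8 and 3867 in Kif2c among genes not printed.
Ccnb1 (chr13:100786457-100786656, minus strand): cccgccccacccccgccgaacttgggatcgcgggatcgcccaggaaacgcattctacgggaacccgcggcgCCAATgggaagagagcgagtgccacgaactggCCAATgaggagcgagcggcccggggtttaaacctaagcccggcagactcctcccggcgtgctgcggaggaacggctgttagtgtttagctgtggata
Ccnf (chr17:24251380-24251579, minus strand): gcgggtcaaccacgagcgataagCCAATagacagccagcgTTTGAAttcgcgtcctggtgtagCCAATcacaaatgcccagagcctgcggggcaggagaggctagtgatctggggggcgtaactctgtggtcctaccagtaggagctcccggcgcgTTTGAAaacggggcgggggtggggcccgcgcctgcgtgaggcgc
Cdc20 (chr4:118437314-118437513, minus strand): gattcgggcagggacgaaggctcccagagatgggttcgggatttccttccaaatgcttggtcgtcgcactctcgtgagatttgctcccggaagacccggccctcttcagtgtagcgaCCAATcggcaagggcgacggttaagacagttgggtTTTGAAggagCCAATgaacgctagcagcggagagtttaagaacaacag
Ube2c (chr2:164769759-164769958, plus strand): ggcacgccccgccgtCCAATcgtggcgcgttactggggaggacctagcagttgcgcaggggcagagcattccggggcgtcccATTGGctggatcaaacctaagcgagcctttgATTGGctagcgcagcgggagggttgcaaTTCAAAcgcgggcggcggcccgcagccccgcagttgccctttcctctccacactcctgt
Sapcd2 (chr2:25371865-25372064, plus strand): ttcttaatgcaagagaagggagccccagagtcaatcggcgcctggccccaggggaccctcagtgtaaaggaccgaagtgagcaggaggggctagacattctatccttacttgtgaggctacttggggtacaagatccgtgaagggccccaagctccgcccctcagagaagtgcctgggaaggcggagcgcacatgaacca
Ccnb2 (chr9:70421525-70421724, minus strand): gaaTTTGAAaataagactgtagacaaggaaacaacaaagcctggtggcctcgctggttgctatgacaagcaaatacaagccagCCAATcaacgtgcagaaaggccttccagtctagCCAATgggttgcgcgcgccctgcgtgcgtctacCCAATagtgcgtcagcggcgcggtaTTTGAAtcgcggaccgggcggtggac
Nusap1 (chr2:119618128-119618327, plus strand): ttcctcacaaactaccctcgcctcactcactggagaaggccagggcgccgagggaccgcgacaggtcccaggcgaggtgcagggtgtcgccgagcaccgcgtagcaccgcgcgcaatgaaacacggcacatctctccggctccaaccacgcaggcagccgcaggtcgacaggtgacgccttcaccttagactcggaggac

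Ccnf, Cdc20, Ube2c and Ccnb2 hold both a CHR form and NF-Y boxes in these stretches. Ccnb1 holds 2 NF-Y boxes and neither CHR form, and Sapcd2 and Nusap1 hold none of the 3 motifs in the whole window. Among the 9 genes with a window that rose in K262Q against WT, 6 held a CHR form, 6 held CCAAT and 5 held both. Of the 19 with a window that did not pass the test, 17 held a CHR form, 16 held CCAAT and 15 held both. The motifs were therefore found both in genes that rose and in genes that did not pass. The plot of match positions shows the boxes mostly before the start and the CHR forms near it.

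**Figure D1:**
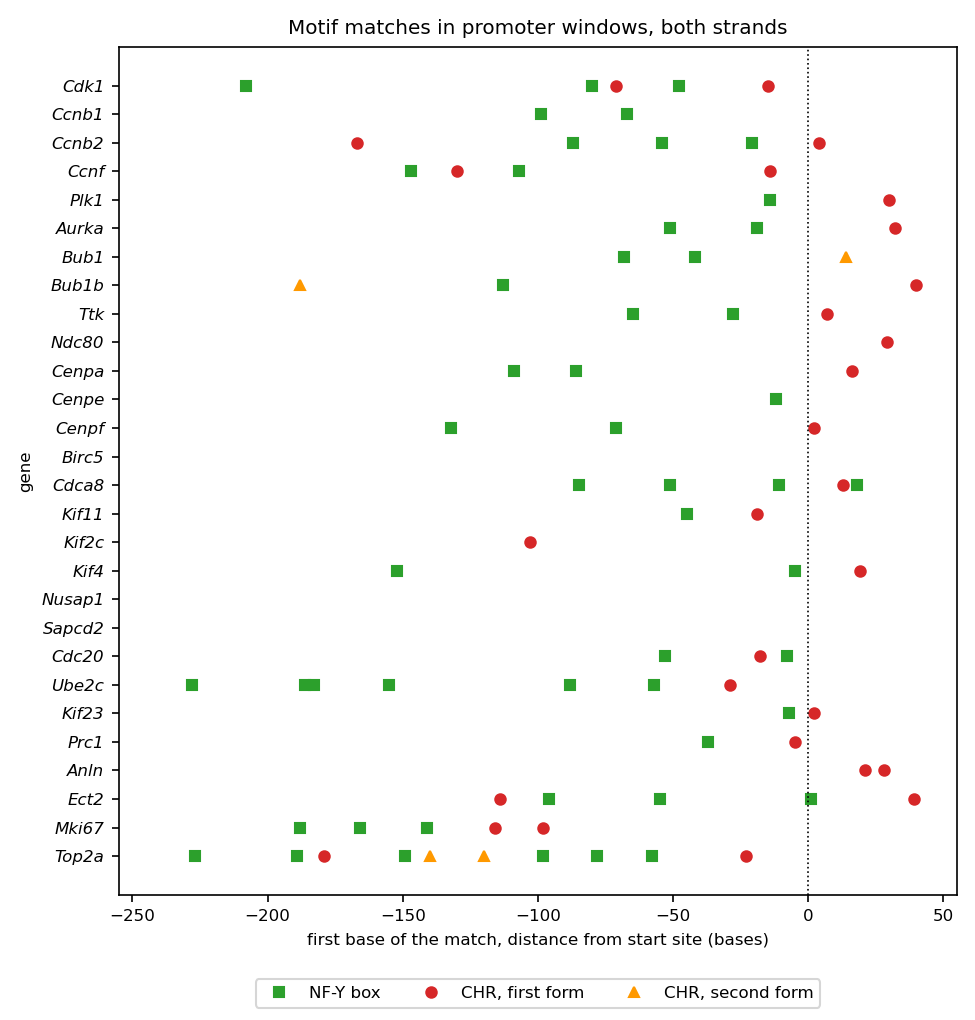
Position of each motif match (first base, in bases from the RefSeq start site, x axis) in the promoter windows of 28 mitotic genes (y axis), on either strand. Squares are NF-Y boxes, and circles and triangles are the 2 CHR forms; Birc5, Sapcd2 and Nusap1 have no match, and 21 genes have a CHR form starting between -50 and 44.

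The values are FPKM, a deposited measure of fragments relative to transcript length and library size. Differences are of log2(FPKM + 1), folds are those differences on a linear scale, errors of differences are SE and errors of FPKM are SD (n = 3). A gene rose or fell where limma gave an adjusted p under 0.05 over the 12212 genes whose mean reached 1 FPKM. All 33 genes passed this filter and none was at 0 in any sample. Cd274, the check of the labels, read 0.982, 0.357 and 0.791 FPKM in KO, 35.6, 35.4 and 38.0 in WT and 37.6, 41.3 and 40.1 in K262Q. The implied depth was 17.9 to 19.3 (in units of 1e6 fragments) per sample, and the lowest value of a member stood for about 711 fragments in Ndc80 and 14342 in Cdk1. This implies a counting error of 0.835% to 3.75%, from counting alone. Of 11 epithelial markers 3 had a mean over 1 FPKM, with Krt18 at 26.1 to 35.7 and Krt20 at 10.3 to 14.5 FPKM. The labels call the line a carcinoma, but defining epithelial markers were at or near 0: Cdh1 at 0 in every sample, Epcam at most 0.0546 FPKM, Krt19 at most 0.159 and Krt8 at most 0.286. KO samples had a summed epithelial level of 48.5 to 51.0 FPKM, WT samples 44.5 to 46.3 and K262Q samples 40.5 to 42.8, and the part of this in the results was not tested. Of 9 mesenchymal markers 8 reached 1 FPKM, Vim and Fn1 being the highest, with sums of 3211 to 3560, 3115 to 3518 and 3266 to 3347 FPKM in KO, WT and K262Q. Nearly all of that is Vim, and without it K262Q samples summed to 178 to 184 FPKM, against 248 to 261.8 for WT and 223 to 261 for KO. In 3 of the 8 K262Q lay below WT without overlap, and in none above. Snai2 read 41.3, 21.3 and 52.9 FPKM in KO, 46.5, 41.1 and 45.7 in WT and 18.3, 20.97 and 20.2 in K262Q, so that KO replicate 2 and the K262Q samples stood apart from the other 5. Fn1 read 116, 97.3 and 103 FPKM in KO, 107, 105 and 115 in WT and 76.6, 68.5 and 72.9 in K262Q, and the part of these markers in the results was not tested. Of 7 leukocyte markers only Cd68 reached 1 FPKM (1.98 to 4.53 FPKM), and Adgre1 was at 0 throughout. Leukocyte sums were 2.08 to 4.54 FPKM for KO, 2.40 to 3.55 for WT and 2.98 to 3.26 for K262Q.

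FPKM is per length, so levels can be compared between genes. By mean over the 9 samples the order ran from Ube2c (278.1 FPKM), Cdk1 (207), Kif23 (153), Top2a (126) and Anln (107) to Ccnb1 (20.9), Kif11 (20.1), Ndc80 (19.3) and Ttk (17.0). Cdk1 stood above its cyclins Ccna2 (105), Ccnb2 (32.6) and Ccnb1. Neighbours in the order, such as Bub1 (69.6) and Bub1b (69.1), Ect2 (44.7) and Nusap1 (44.5) or Ccnf (23.2) and Kif2c (23.1), did not differ beyond the spread over samples. Summed over the 33 genes, KO samples had 2226 to 2536 FPKM, WT samples 2165 to 2268 and K262Q samples 2529 to 2702. The 3 K262Q samples and KO replicate 2 stood above the other 5 samples in this sum. The plot of all 33 genes by sample shows the same 4 columns as the redder ones.

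**Figure D2:**
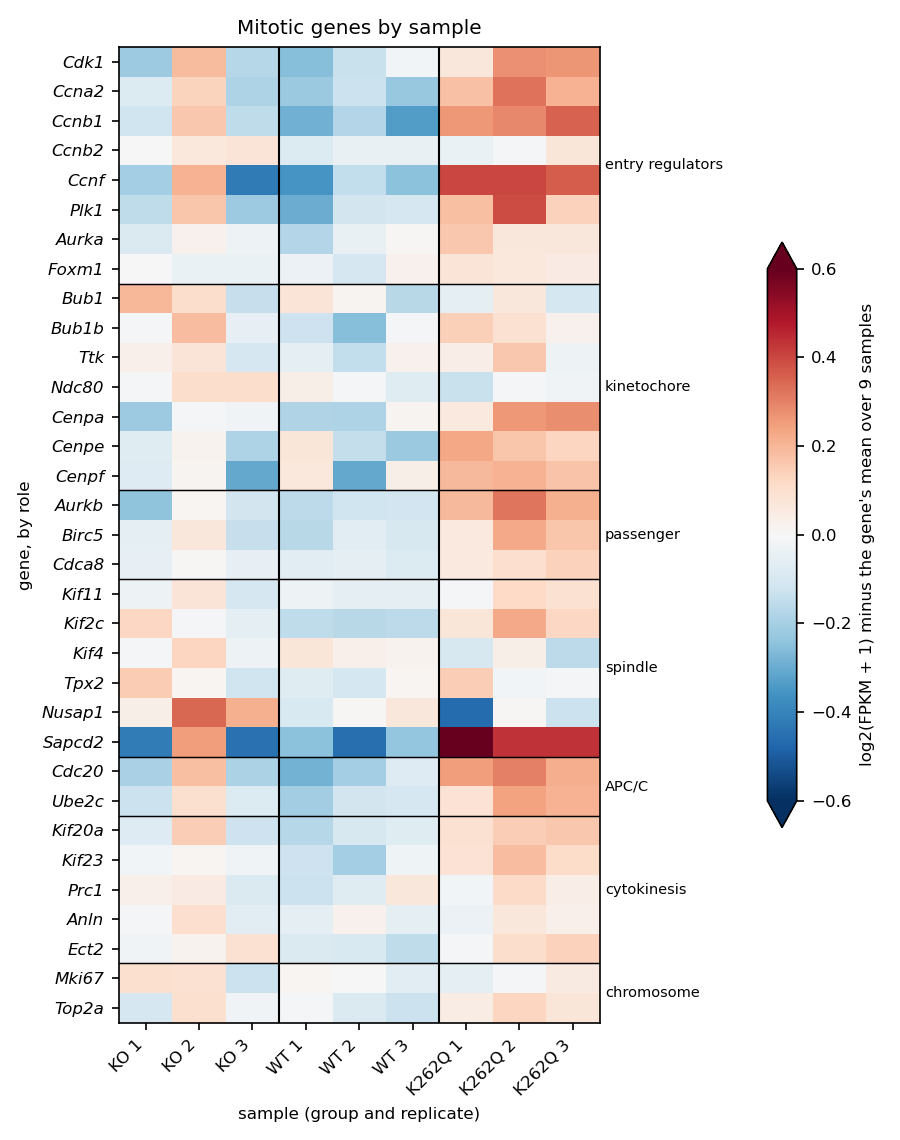
Each row is a gene, grouped by role, and each column a sample; colour gives log2(FPKM + 1) minus the mean of that gene over the 9 samples, with the scale clipped at 0.6 either way. KO replicate 2 was above the mean in 30 of the 33 genes, beside 54.7% of all genes tested. The K262Q samples were above it in 23, 29 and 27 (48.2%, 56.6% and 54.2% of all genes). The WT samples were above it in 6, 5 and 9 (40.5%, 41.9% and 47.7%), and KO replicates 1 and 3 in 9 and 4 (47.9% and 47.3%).

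The first question is whether cells with K262Q Pd-l1 differ from cells with wild type Pd-l1. In K262Q, 11 of the 33 genes rose, none fell and 22 did not pass (10 of 32 rose without Sapcd2, whose rise was known when it was chosen), beside 6.35% of all genes tested that rose, 3.02% that fell and 9.38% that passed either way. The 11 were Sapcd2 (1.77-fold), Ccnf (1.55), Ccnb1 (1.48), Cdc20 (1.36), Ccna2 (1.35), Aurkb (1.29), Ube2c (1.25), Kif2c (1.23), Birc5 (1.20), Kif23 (1.19) and Cdca8 (1.13). All 3 K262Q samples lay above all 3 WT samples in 24 of the 33, beside 22.0% of all genes tested, and below them in none, beside 13.4%. The median difference of the 33 was 0.22 on the log2 scale, against 0.03 over all genes tested. The estimate was above 0 in 29 genes, beside 6838 of the 12212 genes tested. After scaling by upper quartile and by trimmed mean (TMM) it was above 0 in 28 and 28 of the 33. After scaling by the total of gene models of at least 200 bases it was above 0 in 25.

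The number of calls varied with the sample left out. Without WT replicate 1, WT replicate 2, K262Q replicate 2 or K262Q replicate 3, none of the 33 passed. The share of all genes that passed fell from 9.38% to 0.401%, 0.36%, 0.237% and 0.336%. At an unadjusted p under 0.05 limma had 18, 17, 18 and 18 of the 33 without those samples. With all samples it had 21 of the 33, beside 3402 of the 12212 genes tested. Ccnb1 alone passed without K262Q replicate 1 (2.73% of all genes tested), Ccnb1 and Kif23 without WT replicate 3 (3.04%), 6 genes without KO replicate 1 (5.88%) and the same 11 without KO replicate 3 (9.75%). Without KO replicate 2, 14 rose (13.1% of all genes tested passed in either direction, and 8.75% rose), Cdk1, Plk1 and Kif20a being added. The median difference was between 0.18 and 0.23 in these 9 fits. Gene models under 200 bases took 12.4% to 13.4% of total FPKM in K262Q and 10.6% to 11.3% in WT, and the total of the longer models was 630225 to 642758 FPKM in K262Q and 582295 to 607168 in WT. Scaled to that longer total, 7 of the 33 genes rose, beside 6.97% of all genes tested that passed in either direction. All 7 were among the 11 (Ccna2, Ccnb1, Ccnf, Aurkb, Sapcd2, Cdc20 and Ube2c). The median difference was then 0.12, against -0.05 over all genes tested.

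Among the regulators of mitotic entry K262Q lay above WT without overlap in 8 of 8, beside 22.0% of all genes tested. Of these 8 genes 3 rose, beside 6.35%. Ccnb1, the B-type cyclin that drives entry together with Cdk1, read 16.7, 18.1 and 16.1 FPKM in WT, 24.9, 25.4 and 26.6 in K262Q and 18.9, 23.2 and 18.5 in KO. The K262Q values lay above those of both other groups, and the rise over WT was 1.48-fold (log2 difference 0.57 ± 0.09, adjusted p = 0.018). Ccnf, the F-box protein cyclin F of a ubiquitin ligase, read 17.5, 20.3 and 18.9 FPKM in WT, 30.1, 30.1 and 29.3 in K262Q and 19.5, 26.3 and 16.6 in KO. The 3 K262Q samples were close together while KO spread widely, and the rise over WT was 1.55-fold (log2 difference 0.64 ± 0.14, adjusted p = 0.0391). Ccna2, the cyclin of S phase and early mitosis, read 89.1, 94.9 and 88.6 FPKM in WT, 117, 130.5 and 120.4 in K262Q and 98.3, 114 and 91.3 in KO. Here again no K262Q sample was as low as any other, and the rise over WT was 1.35-fold (log2 difference 0.43 ± 0.08, adjusted p = 0.0282). Ccna2 shares 12.5% of its exon bases with Exosc9 on the opposite strand, and the strand of counting is not given in the sources used here, so reads from the shared bases cannot be told apart.

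Among the entry genes that did not pass, Cdk1 itself read 172, 187 and 203 FPKM in WT, 215, 248 and 246 in K262Q and 176, 234 and 182 in KO (log2 difference 0.34 ± 0.12, adjusted p = 0.116). K262Q lay above WT without overlap, with KO replicate 2 inside the K262Q range. Plk1, a kinase needed from entry to division, read 39.9, 45.7 and 46.0 FPKM in WT and 56.1, 65.1 and 54.4 in K262Q (log2 difference 0.41 ± 0.12, adjusted p = 0.0691). Aurka, the kinase of centrosomes and spindle poles, had a difference of 0.17 (95% interval 0.04 to 0.31, adjusted p = 0.107), and Foxm1, a transcription factor of late cell cycle genes, one of 0.10 (0.01 to 0.19, adjusted p = 0.159). Ccnb2, the other B-type cyclin, read 30.8, 31.56 and 31.60 FPKM in WT and 31.64, 32.5 and 34.3 in K262Q. Ccnb2 was separate between these groups only by the step from 31.60 to 31.64 FPKM, under the 3.34% that counting alone implies. Its difference was 0.06 (95% interval -0.04 to 0.17), an interval that lies wholly under the estimate of 0.57 for Ccnb1, although whether the B-type cyclins differ from each other was not tested.

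**Figure D3:**
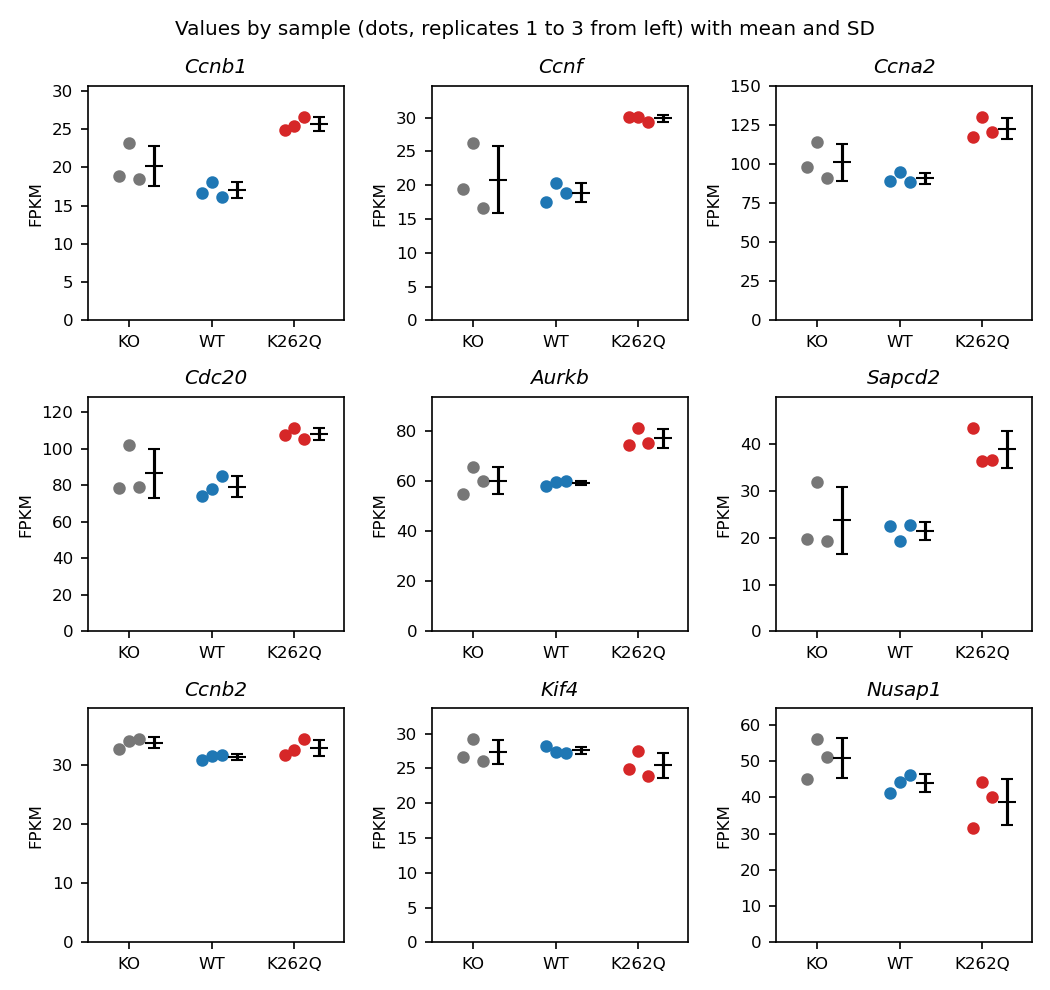
FPKM (y axis, from 0) of 9 mitotic genes in each sample, with a bar for the mean and SD of each group (KO, WT, K262Q; n = 3). In the upper 6 genes, which rose in K262Q against WT, no K262Q sample overlaps another group; Ccnb2, Kif4 and Nusap1 did not pass the test.

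The chromosomal passenger complex corrects faulty attachments and later acts in division. All 3 of its genes listed here rose, beside 6.35% of all genes tested. Aurkb, its kinase, read 58.3, 59.8 and 60.0 FPKM in WT, 74.5, 81.5 and 75.4 in K262Q and 54.8, 65.6 and 60.1 in KO. K262Q overlapped neither of the other groups, and the rise over WT was 1.29-fold (log2 difference 0.37 ± 0.07, adjusted p = 0.0242). Birc5 (survivin), which brings the complex to centromeres, read 85.8, 91.9 and 90.2 FPKM in WT, 100.5, 113 and 108 in K262Q and 92.7, 101 and 87.4 in KO. It rose 1.20-fold over WT (log2 difference 0.26 ± 0.07, adjusted p = 0.0492) with the highest adjusted p of the 11, and its highest KO sample lay just above its lowest K262Q sample. Under the 3 other scalings Birc5 did not pass, with adjusted p of 0.0516, 0.0509 and 0.0901. Cdca8 (borealin) binds Birc5 in the complex and read 51.0, 51.4 and 50.5 FPKM in WT, 55.8, 57.4 and 59.1 in K262Q and 51.6, 53.8 and 51.6 in KO. Its rise was the smallest of the 11, 1.13-fold (log2 difference 0.17 ± 0.04, adjusted p = 0.0366), with a WT mean of 50.9 ± 0.455 FPKM. Scaled by upper quartile, TMM and the longer gene models, Cdca8 had a limma adjusted p of 0.0624, 0.0494 and 0.194.

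Of the 7 kinetochore and checkpoint genes none passed (limma, 3 at an unadjusted p under 0.05), beside 9.38% of all genes tested. K262Q lay above WT without overlap in 4 of them, beside 22.0%. Cenpa, the histone H3 variant that marks centromeres, read 91.0, 90.6 and 104 FPKM in WT and 107, 124 and 125 in K262Q (log2 difference 0.31 ± 0.09, adjusted p = 0.0691). Cenpe, a kinesin of the kinetochore, read 43.5, 37.3 and 35.2 FPKM in WT and 48.8, 46.5 and 45.2 in K262Q (log2 difference 0.27 ± 0.09, adjusted p = 0.0867). In both the groups were separate by a small margin. Cenpf, a protein of the outer kinetochore, had means of 34.1 ± 4.78 FPKM in WT and 40.7 ± 0.538 in K262Q, and Bub1b, the checkpoint protein BubR1, 63.0 ± 5.53 and 73.3 ± 2.98. Ttk, the kinase that starts checkpoint signalling, was at 16.3 ± 1.05 FPKM in WT and 17.7 ± 1.26 in K262Q (95% interval of the difference -0.06 to 0.29). The checkpoint kinase Bub1 read 73.2, 70.2 and 61.6 FPKM in WT and 66.5, 72.7 and 64.3 in K262Q, with an interval of -0.24 to 0.23. Ndc80, the microtubule-binding subunit of the kinetochore, had an estimate of -0.04 (-0.17 to 0.09). The groups overlapped in Ttk, Bub1 and Ndc80, and these intervals include both small rises and small falls.

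Of the 6 spindle genes 2 rose, beside 6.35% of all genes tested. Sapcd2, a protein known to act on spindle orientation, read 22.4, 19.3 and 22.6 FPKM in WT, 43.5, 36.4 and 36.5 in K262Q and 19.7, 31.9 and 19.3 in KO. Every K262Q sample was above every other sample, by 1.77-fold over WT (log2 difference 0.83 ± 0.18). Because this rise was known when the gene was chosen, it is given as a description only. Kif2c, a kinesin that takes microtubule ends apart, read 20.6, 20.4 and 20.5 FPKM in WT, 24.3, 27.1 and 25.2 in K262Q and 25.2, 22.8 and 22.2 in KO. Its WT mean was 20.5 ± 0.0944 FPKM, a spread under the 3.04% that counting alone implies. It rose 1.23-fold over WT (log2 difference 0.30 ± 0.06, adjusted p = 0.0292), and its KO samples lay between the groups, above all WT samples and reaching into the K262Q range. Scaled by upper quartile, TMM and the longer gene models, Kif2c had a limma adjusted p of 0.0672, 0.0327 and 0.0983. Kif11, the kinesin that pushes spindle poles apart, and Tpx2, which activates Aurka on the spindle, had differences of 0.11 (-0.02 to 0.24) and 0.10 (-0.09 to 0.28). Kif4, a kinesin of chromosome arms and the central spindle, read 28.2, 27.4 and 27.2 FPKM in WT and 24.9, 27.4 and 23.9 in K262Q (log2 difference -0.12, adjusted p = 0.286). Nusap1, which bundles spindle microtubules near chromosomes, read 41.3, 44.3 and 46.2 FPKM in WT, 31.7, 44.2 and 40.2 in K262Q and 45.2, 56.2 and 51.2 in KO. K262Q replicate 1 was its lowest sample and KO replicate 2 its highest, and the difference to WT was -0.19 (-0.49 to 0.10, adjusted p = 0.373). Kif4 shares 15.1% of its exon bases with Pdzd11 on the opposite strand.

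Both genes of the anaphase promoting complex pathway rose, beside 6.35% of all genes tested. Cdc20, the activator that the checkpoint holds back, read 73.9, 78.1 and 85.3 FPKM in WT, 107, 112 and 105 in K262Q and 78.6, 102 and 78.9 in KO. The groups K262Q and WT stood well apart, with KO replicate 2 closest to K262Q, and the rise over WT was 1.36-fold (log2 difference 0.45 ± 0.10, adjusted p = 0.0417). Ube2c, the ubiquitin-conjugating enzyme of the complex, read 239, 256 and 258 FPKM in WT, 294, 327 and 319 in K262Q and 253, 295 and 261 in KO. It rose 1.25-fold over WT (log2 difference 0.32 ± 0.07, adjusted p = 0.0363), with KO replicate 2 just above K262Q replicate 1. Of its exon bases 22.8% lie opposite Tnnc2, which was near 0 here (mean 0.037 FPKM).

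Of the 5 cytokinesis genes 1 rose, beside 6.35% of all genes tested. Kif23, the kinesin of centralspindlin, which bundles microtubules between the separating chromosomes, read 139.8, 132 and 149.6 FPKM in WT, 162, 173 and 165 in K262Q and 151, 154 and 150.1 in KO. The 3 KO samples were close together between the other groups, and the rise over WT was 1.19-fold (log2 difference 0.25 ± 0.05, adjusted p = 0.0328). Scaled by upper quartile, TMM and the longer gene models, Kif23 had a limma adjusted p of 0.0463, 0.0314 and 0.101. Kif20a, another kinesin of the central spindle, read 73.8, 77.9 and 79.1 FPKM in WT and 88.9, 92.3 and 93.3 in K262Q (log2 difference 0.25 ± 0.07, adjusted p = 0.0717). Ect2, which activates RhoA at the division plane, read 41.9, 41.8 and 40.0 FPKM in WT and 44.4, 48.1 and 49.1 in K262Q (log2 difference 0.19 ± 0.05, adjusted p = 0.0598). K262Q was separate from WT in both, and both missed the threshold. Prc1, which cross-links the central spindle, had a difference of 0.09 (-0.06 to 0.24), and Anln (anillin), the scaffold of the contractile ring, one of 0.05 (-0.08 to 0.18). Kif20a shares 29.3% of its exon bases with Cdc23 and Prc1 11.1% with Rccd1, both on the opposite strand.

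Neither of the chromosome genes passed (limma, 1 at an unadjusted p under 0.05). Mki67, the proliferation marker that coats mitotic chromosomes, read 29.2, 29.0 and 27.7 FPKM in WT, 27.9, 28.8 and 30.1 in K262Q and 31.1, 31.0 and 26.4 in KO. All 3 groups overlapped, and the K262Q difference from WT was 0.01 (-0.14 to 0.17, adjusted p = 0.925). Top2a, the topoisomerase that untangles sister chromosomes, read 126, 118 and 115 FPKM in WT and 130.1, 138 and 132 in K262Q (log2 difference 0.16 ± 0.06, adjusted p = 0.133), without overlap. The plot of all differences shows the 11 calls spread over 5 of the 7 roles.

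**Figure D4:**
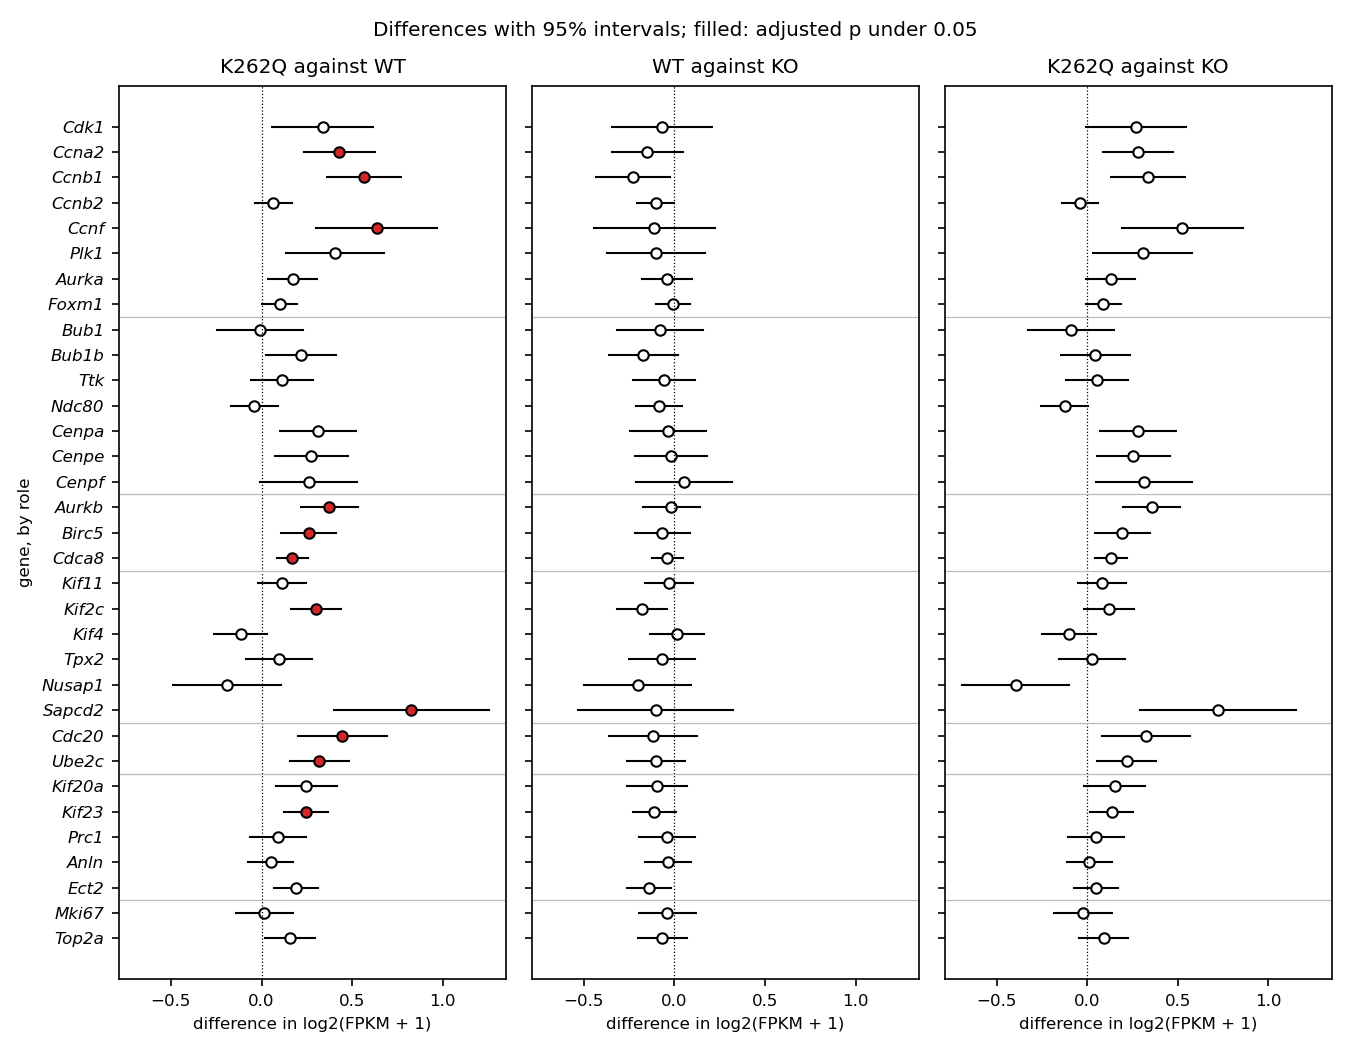
Difference in log2(FPKM + 1) (x axis) with its 95% interval for each gene (y axis, by role) in 3 comparisons; filled points have a limma adjusted p under 0.05. In K262Q against WT 11 points are filled and 29 lie above 0, in the other comparisons none is filled, and 31 of 33 lie below 0 in WT against KO; without KO replicate 2 this count was 21.

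The 11 genes that rose lie on 7 chromosomes (GENCODE release 21, GRCm38). Ccnb1 is on chromosome 13, 100778650 to 100786570, minus strand, Ccna2 on chromosome 3, 36564865 to 36572150, minus strand, Ccnf on chromosome 17, 24222198 to 24251484, minus strand and Kif23 on chromosome 9, 61915905 to 61946774, minus strand. Chromosome 11 holds Aurkb (69045647 to 69051664, plus strand) and Birc5 (117849251 to 117855743, plus strand). Chromosome 4 holds Cdca8 (124918465 to 124939311), Kif2c (117159639 to 117182639) and Cdc20 (118432901 to 118437352), all on the minus strand. Chromosome 2 holds Sapcd2 (25372321 to 25378213) and Ube2c (164769898 to 164778822), both on the plus strand. The 33 genes together lie on 15 chromosomes, with 7 genes on chromosome 2, and all are protein coding. Pseudogene models named after Ccnb1, Ccnb2 and Kif4 exist, so reads of these genes may have been split.

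Outside the 33, a list of 148 other genes of mitosis was counted in the same way. In K262Q against WT 23 rose and 1 fell, beside 6.35% and 3.02% of all genes tested, with a median difference of 0.12 against 0.03 over all genes. Scaled to the longer gene models, 8 rose and 1 fell, beside 6.97% of all genes tested that passed in either direction. That count is near the share. The median was then 0.03 against -0.05, with 88 estimates above 0 and 60 below. Fzr1, which activates the anaphase promoting complex late in mitosis and in G1, had 20.3 ± 0.118 FPKM in WT and 28.7 ± 1.17 in K262Q and rose 1.39-fold (log2 difference 0.48 ± 0.04, adjusted p = 0.00522). Mybl2 (B-Myb), the transcription factor that joins MuvB at CHR promoters, rose 1.32-fold (log2 difference 0.40 ± 0.06, adjusted p = 0.0192), from 36.0 ± 1.39 to 47.7 ± 0.0549 FPKM. Ckap2l, a spindle protein, rose 1.21-fold (log2 difference 0.27 ± 0.05, adjusted p = 0.0224). Mastl (Greatwall), the kinase that restrains the phosphatase opposing Cdk1, read 13.9, 13.3 and 13.7 FPKM in WT and 10.6, 12.4 and 11.5 in K262Q and fell (log2 difference -0.23 ± 0.06, adjusted p = 0.0494). By role, calls were found for 6 of 22 entry regulators, 4 of 39 kinetochore and checkpoint genes, 1 of 2 passenger genes, 5 of 37 spindle genes, 4 of 19 genes of the anaphase promoting complex, 1 of 18 condensin and cohesin genes and 3 of 11 cytokinesis genes, Mastl being the call among them that was a fall. These stand beside 9.38% of all genes tested, and the counts for kinetochore, spindle and condensin and cohesin genes are near that share. Without 1 WT or K262Q sample the count of the 148 was 1 to 3, beside 0.237% to 3.04% of all genes tested. Without KO replicate 1 it was 13, beside 5.88%. Of 42 genes of G1/S and DNA replication 40 were tested, 14 rose and none fell (median 0.22), beside the same 6.35% and 3.02% of all genes. None of them passed without WT replicate 1 or 2 or K262Q replicate 2 or 3, beside 0.237% to 0.401% of all genes tested. In these fits limma had 21, 23, 21 and 19 of the 40 at an unadjusted p under 0.05. Without WT replicate 3, 4 passed, beside 3.04%, and without K262Q replicate 1, 6 passed, beside 2.73%. After scaling to the longer gene models 6 rose, beside 6.97% of all genes tested that passed in either direction. The median of the 40 was then 0.13, against -0.05 over all genes. The replication genes with the highest levels were Rrm2 and Rrm1, the subunits of ribonucleotide reductase. They had 144 ± 2.14 and 116 ± 7.83 FPKM in WT and 194 ± 7.72 and 131 ± 8.36 in K262Q. Rrm2 rose (adjusted p = 0.0236) and Rrm1 did not pass (adjusted p = 0.196).

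The next comparison sets WT against KO, and it shares the WT samples with the first. Whether a group is 1 clone is not known. In all 3 comparisons an effect of Pd-l1 and other differences between the selected cells cannot be told apart. In WT against KO, none of the 33 genes passed in limma, beside 0.0819% of all genes tested. In this fit 4 of the 33 had an unadjusted p under 0.05, beside 686 of the 12212 genes tested. The median difference was -0.07, against -0.02 over all genes tested. Estimates below 0 numbered 31, beside 7134 of the 12212 genes tested. Of the 33, 28 were below 0 after TMM scaling and 23 after scaling to the longer gene models. Without KO replicate 2 the median was -0.01, the same as over all genes tested, and 21 estimates were below 0. Without KO replicate 1 or 3 the median was -0.11. WT lay below KO without overlap in 6 genes (Ccnb1, Ccnb2, Cdca8, Ect2, Kif2c and Kif23), beside 6.48% of all genes tested, and above it in none, beside 2.75%. The 4 genes with an unadjusted p under 0.05 were Kif2c (-0.18, 95% interval -0.32 to -0.04, adjusted p = 0.854), Ect2 (-0.14, -0.26 to -0.02, 0.854), Ccnb1 (-0.23, -0.43 to -0.03, 0.858) and Ccnb2 (-0.10, -0.20 to -0.003, 0.885). Ect2 read 44.0, 45.2 and 47.5 FPKM in KO against 41.9, 41.8 and 40.0 in WT. The 95% intervals of the 33 genes differed in width. That of Sapcd2 ran from -0.53 to 0.32 and that of Cdca8 from -0.12 to 0.05. A gene that did not pass may still differ by an amount within its own interval. None of the 148 other mitotic genes passed (limma, 17 at an unadjusted p under 0.05), and none of the 40 replication genes did (4 at an unadjusted p under 0.05).

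The last comparison sets K262Q against the knockout without rescue, and it shares the K262Q samples with the first and the KO samples with the second. None of the 33 genes passed in limma, beside 1.26% of all genes tested. In this fit 15 of the 33 had an unadjusted p under 0.05, beside 2681 of the 12212 genes tested. The median difference was 0.13, against 0.01 over all genes tested. Estimates above 0 numbered 27, beside 6408 of the 12212 genes tested. Of the 33, 25, 27 and 22 were above 0 under the upper-quartile, TMM and longer-model scalings. Under the last of these the median was 0.08, against -0.03 over all genes. K262Q lay above KO without overlap in 13 genes, beside 15.0% of all genes tested, and below it in Ndc80 and Nusap1, beside 11.9%. The values side by side for the genes that rose against WT were 0.72 for Sapcd2 (adjusted p = 0.0881), 0.53 for Ccnf (0.0976), 0.36 for Aurkb (0.0552), 0.34 for Ccnb1 (0.0899), 0.33 for Cdc20 (0.133), 0.28 for Ccna2 (0.116), 0.22 for Ube2c (0.133), 0.19 for Birc5 (0.148), 0.14 for Kif23 (0.178), 0.13 for Cdca8 (0.102) and 0.12 for Kif2c (0.288). Aurkb was nearest to the threshold and passed under the 3 other scalings and with a minimum mean of 5 FPKM. Nusap1 had the lowest estimate, -0.39 (95% interval -0.69 to -0.10, adjusted p = 0.136), its K262Q samples lying below all KO samples. Of the 148 other mitotic genes Fzr1 (1.26-fold, adjusted p = 0.0235) and Mybl2 (1.31-fold, 0.0452) rose and Mastl fell (log2 difference -0.37, 0.0414). Among the 40 replication genes E2f1 rose (limma, 1.25-fold, adjusted p = 0.0375). Without KO replicate 2, 12 of the 40 rose, beside 5.58% of all genes tested that rose. Without any other sample E2f1 did not pass.

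The count of the 33 genes in K262Q against KO changed most when KO replicate 2 was left out. The share of all genes tested that passed then went from 1.26% to 9.15%. The median difference of the 33 went from 0.13 to 0.15. KO replicate 2 was the highest KO sample in 25 of the 33 genes, beside 42.7% of all genes tested, and reached the lowest K262Q value in 19. KO replicate 1 or 3 reached it in 12; over all genes tested these shares were 71.8% and 75.5%. In Sapcd2 it read 31.9 FPKM beside 19.7 and 19.3, in Ccnf 26.3 beside 19.5 and 16.6, and in Cdc20 102 beside 78.6 and 78.9. Its level of Snai2 was 21.3 FPKM beside 41.3 and 52.9. Its total FPKM over the longer gene models was 636434, against 600609 and 601386 in the other KO samples. Leaving KO replicate 2 out lowers the KO mean in genes where it was the highest KO sample, so the next count is a description only. Without KO replicate 2, 11 of the 33 genes rose in K262Q against KO and none fell, beside 5.58% of all genes that rose. These were Sapcd2 (1.93-fold), Ccnf (1.62), Cdc20 (1.37), Ccnb1 (1.35), Aurkb (1.34), Plk1 (1.34), Cdk1 (1.32), Ccna2 (1.29), Ube2c (1.22), Kif20a (1.18) and Cdca8 (1.11). With any other sample left out, none of the 33 passed in this comparison, and of the 148 other genes 17 passed without KO replicate 2 and 0 or 1 without another sample. The cause of the difference between the KO samples was not tested. The plot of counts by setting gives both comparisons side by side.

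**Figure D5:**
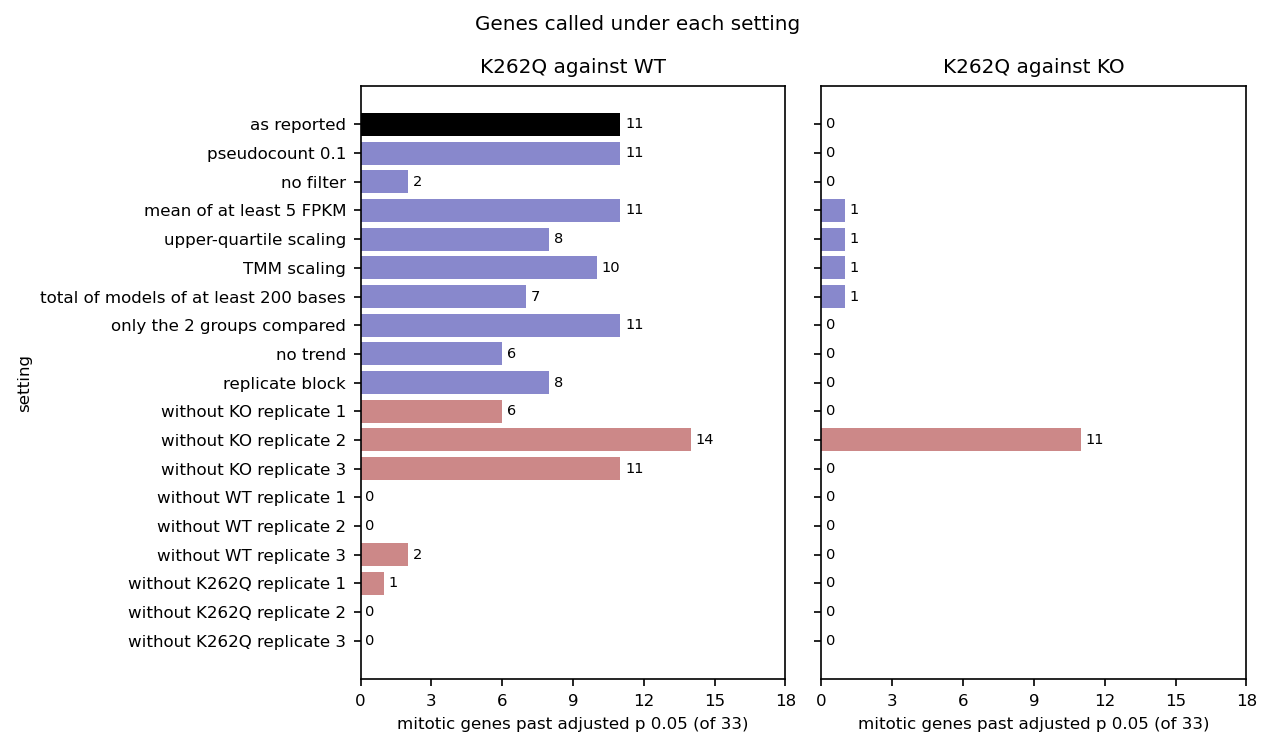
Number of the 33 mitotic genes with a limma adjusted p under 0.05 (x axis) under each setting (y axis) in K262Q against WT (left) and K262Q against KO (right). Black is the count as reported, blue the other settings and pink the fits without 1 sample; the counts run from 0 to 14 on the left, and on the right from 0 to 1 except for 11 without KO replicate 2.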

How the data were processed

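RNA sequencing of 9 samples was used, 3 per group, and no sample or column was left out. The authors deposited 1 FPKM value per gene and sample. Per the submitters' processing notes, STAR 2.5.4a, Cufflinks 2.2.1, Cuffdiff and build mm10 were used. Gene annotation, strand and normalization options are not given in the sources used here. Values were log2(FPKM + 1), and genes were tested where the mean over the 9 samples reached 1 FPKM. In R 4.3.3, limma 3.58.1 fitted the 3 groups together over 9 samples, with a mean-variance trend in eBayes. Tests were two-sided, p-values were adjusted over 12212 genes by Benjamini-Hochberg, and 0.05 was the threshold. The script was tested on simulated data. An exact permutation test of 3 against 3 samples cannot give a p under 0.1.

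The 33 genes and the other lists were chosen with earlier results of these data known, and Sapcd2 was then already among the largest rises. All 33 are named, with up to 3 of the other mitotic genes per direction and comparison by smallest adjusted p, and up to 2 of each other list by level; Cdh1, Epcam, Krt8, Krt19, Snai2, Adgre1 and E2f1 were added after their values were seen. Lists matched by symbol (1 gene by an older one), and Itgam, with 2 rows, was left out. Positions come from GENCODE mouse release 21 and promoters from RefSeq, GRCm38.p6. Depth was implied by the spacing of low values in genes with transcripts of 2000 to 8000 nt; 61.7% to 69.6% of these values lay within 0.05 of a whole fragment, so counts were not recovered. Alternatives were a pseudocount of 0.1, no filter, a minimum mean of 5 FPKM, scaling by upper quartile, by TMM and by the longer models, only the groups compared, no trend, a replicate block and each sample left out; for the replication genes these were chosen after seeing the data. Python 3.11.15, pandas 2.3.3, numpy 2.4.6 and matplotlib 3.10.9 were used.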

Additional observations from a re-analysis of the deposited data

How the results depend on the processing

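In K262Q against WT, 11 of the 33 mitotic genes passed the threshold as reported. The count was 2 with no filter, 7 with longer-model scaling, 6 without the trend, and 0 to 14 with 1 sample left out. Of all genes tested, 9.38% passed as reported, 1.29% with no filter, 6.97% with longer-model scaling and 6.35% without the trend. With 1 sample left out the share was 0.237% to 13.1%. The count was 11 with a pseudocount of 0.1, with a mean of at least 5 FPKM and with only the groups compared. It was 8 with upper-quartile and 10 with TMM scaling. In that order the shares of all genes tested were 9.61%, 13.0%, 11.3%, 7.34% and 8.72%. The same shares apply to the 148 and the 40 below. The genes that passed with no filter were Ccnb1 and Aurkb. Of the 148 other mitotic genes 24 passed as reported, 3 with no filter, 14 with upper-quartile scaling and 9 with longer-model scaling. It was 12 without the trend, and 1 to 28 with 1 sample left out. The count with longer-model scaling is near the share of all genes under that scaling. With the replicate number as a block, 8 of the 33 and 14 of the 148 passed, beside 6.46% of all genes tested. Of the 8, 6 were among the 11. Replicate numbers were not shown to pair samples: the correlation of deviations was -0.0361 to 0.0776 between samples of the same number and -0.0737 to 0.051 between others, and a sample correlated best with its own number in 4 of 18 cases. In WT against KO the counts were 0 under all 18 alternatives, for the 33, the 148 and the 40. Of all genes tested 0.0491% to 0.147% passed under them. In K262Q against KO, 1 of the 33 (Aurkb) passed with a mean of at least 5 FPKM and under upper-quartile, TMM and longer-model scaling. With 1 sample left out the count was 0 to 11. The shares of all genes tested were 2.22%, 1.04%, 2.5% and 1.7%, and 0.106% to 9.15% with 1 sample left out. They were 0.201% with no filter, 0.0819% with only the groups compared, 0.303% without the trend and 0.0409% with the replicate block. Of the 148, 3 passed as reported, 1 with no filter, 0 with only the groups compared, 1 without the trend, 0 with the replicate block and 0 to 17 with 1 sample left out. Of the 40 replication genes, for which the alternatives were chosen after seeing the data, 14 passed in K262Q against WT as reported, 5 with no filter, 6 with longer-model scaling, 8 with the replicate block and 0 to 18 with 1 sample left out. In K262Q against KO 1 passed as reported, 2 with a mean of at least 5 FPKM, 4 with TMM scaling, 0 with no filter, with upper-quartile scaling, with only the groups compared, without the trend and with the replicate block, and 0 to 12 with 1 sample left out. The cause of these changes was not tested; with no filter more genes were tested, and without a sample fewer samples were. Over the 33 genes, 3 comparisons and 18 alternatives, 1665 results kept their direction and side of the threshold or changed sign without passing either way, 96 no longer passed and 21 passed newly, 14 of them without KO replicate 2. Among genes that did not pass, 5 changed sign under some alternative in K262Q against WT, 17 in WT against KO and 6 in K262Q against KO; no gene that passed did.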
